A study of Mus musculus with 12 samples.

Results

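The transcription factor Nrf2, its regulators and a set of its detoxification targets were followed in mouse peritoneal macrophages (PMφs) given oxidized low-density lipoprotein (oxLDL), lipopolysaccharide (LPS), or both. The 10 genes were taken by symbol and not by a cut on their values, but earlier results of these data were known. All 10 were found among the 43278 gene symbols of the table. They comprise 4 regulators (Nfe2l2, which encodes Nrf2, and Keap1, Bach1 and Sqstm1) and 6 targets (Nqo1, Cbr3, Esd, Ephx1, Me1 and Osgin1). Poly(A) RNA was sequenced from 12 PMφ cultures, 3 in each of 4 groups. Every culture came from wild-type C57BL/6J mice aged 8 to 12 weeks, 4 days after an intraperitoneal injection of 1 ml of aged 4% thioglycolate, and adherent cells were used after 18 h in DMEM with 10% FBS. Control PMφs received neither agent, the oxLDL group received 100 µg/ml human medium oxidized LDL for 24 h, the LPS group received 10 ng/ml ultrapure LPS, and the oxLDL+LPS group received oxLDL and then LPS. The duration of LPS treatment is not given for these libraries in the sources used here. Per the study's methods, lavage cells of up to 10 male and female littermates were combined and then divided among the 4 groups. By that description each replicate is a pool and not an animal. The sex-linked transcripts given below did not match that description in every library.

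Nrf2 is a basic leucine zipper transcription factor that pairs with small Maf proteins on antioxidant response elements and switches on genes for glutathione and thioredoxin metabolism, NADPH supply, heme breakdown and the handling of quinones, epoxides and carbonyls. In resting cells Keap1, an adaptor of a cullin 3 ubiquitin ligase and a sensor of electrophiles, marks Nrf2 for degradation. Bach1 is a heme-regulated repressor that occupies the same elements, and the autophagy receptor p62, encoded by Sqstm1, can sequester Keap1 and is itself an Nrf2 target. Much of Nrf2 control acts on the protein, which mRNA levels do not measure. Oxidized lipids and inflammatory stimuli are known activators of this pathway in macrophages.

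The values are normalized counts, which are read counts that the authors divided by 1 factor per library and rounded. The libraries held 16699119 to 26137420 implied reads. All 8 macrophage markers, among them Csf1r and Cd68, were above 10 in every library. All 10 genes used to check the LPS label, among them Tnf and Nos2, were higher in LPS than in control PMφs (median log2 fold change 10.96). The label of oxLDL was checked with 8 lipid genes, of which 3 were higher and 4 lower in oxLDL than in control PMφs when the replicate number was a block. The pools behind the replicate numbers differed. In number 2 the summed level of 4 Y-linked genes was 0 to 2 in all 4 groups, with Xist at 5933 to 7751. Number 3 held both kinds of transcript in every group, with a Y-linked sum of 1620 to 1783 and Xist at 3538 to 4217. Number 1 had a Y-linked sum of 3138 and 3009 and Xist at 1 and 2 in the control and oxLDL libraries, but a Y-linked sum of 1023 and 1004 and Xist at 6331 and 3812 in the LPS and oxLDL+LPS libraries. By these transcripts, number 1 stood for different cells without and with LPS, and both comparisons of PMφs with and without LPS are therefore also given without it. Number 1 was thus not a single pool divided among all 4 groups. Number 2, and number 1 without LPS, did not show the mixture of male and female cells that the methods describe. The summed level of 10 mesothelial and fibroblast markers ranged from 5455 to 32202, was lowest in number 3, and in number 1 fell from 32202 with LPS to 18677 with oxLDL+LPS. Sums of B cell, T cell, mast cell and eosinophil markers stayed at 383 or below in every library, and those of large peritoneal macrophages at 466 to 1081. In these bulk samples, fewer cells of a type and less RNA per cell cannot be told apart.

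The starts of the genes were searched on RefSeq sequence (build GRCm38.p6) for the core of the antioxidant response element, TGACNNNGC, and for the AP-1 motif, TGANTCA, on both strands. The 10 genes matched 11 promoter windows of 250 bases before and 50 bases after a start, Me1 with 2 of them. An element core was found in the windows of 2 genes, Nfe2l2 and Me1, against 12.39% of 32851 promoters of this length, and an AP-1 motif in those of 2, Me1 and Osgin1, against 7.81%. In Me1 the motifs overlap, since TGACTCAGC holds TGACTCA. The window of Sqstm1, whose mRNA reached the highest level of the 10 genes, held neither. Each is shown 5′ to 3′ on the strand of its gene, from 250 bases before to 10 bases after the start, with matches in capitals. A match is a description of letters, and targets of Nrf2 are often regulated from elements outside such a window.
Nfe2l2, minus strand, chr2:75704654-75704913: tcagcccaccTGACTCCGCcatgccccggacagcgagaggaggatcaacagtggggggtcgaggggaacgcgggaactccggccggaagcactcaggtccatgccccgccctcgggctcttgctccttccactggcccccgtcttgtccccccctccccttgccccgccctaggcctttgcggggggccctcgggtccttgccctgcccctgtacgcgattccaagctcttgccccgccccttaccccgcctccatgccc
Me1, minus strand, chr9:86695905-86696164: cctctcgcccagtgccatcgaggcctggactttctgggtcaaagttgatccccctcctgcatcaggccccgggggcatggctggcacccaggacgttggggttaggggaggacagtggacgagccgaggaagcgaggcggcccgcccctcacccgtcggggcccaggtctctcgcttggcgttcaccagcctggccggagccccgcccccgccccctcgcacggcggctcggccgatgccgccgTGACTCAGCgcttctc
Osgin1, plus strand, chr8:119436897-119437156: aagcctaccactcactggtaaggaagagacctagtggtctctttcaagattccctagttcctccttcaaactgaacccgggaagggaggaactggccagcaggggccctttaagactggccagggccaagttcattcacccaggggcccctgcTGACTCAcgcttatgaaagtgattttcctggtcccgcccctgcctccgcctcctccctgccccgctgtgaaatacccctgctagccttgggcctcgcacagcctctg
Sqstm1, minus strand, chr11:50210811-50211070: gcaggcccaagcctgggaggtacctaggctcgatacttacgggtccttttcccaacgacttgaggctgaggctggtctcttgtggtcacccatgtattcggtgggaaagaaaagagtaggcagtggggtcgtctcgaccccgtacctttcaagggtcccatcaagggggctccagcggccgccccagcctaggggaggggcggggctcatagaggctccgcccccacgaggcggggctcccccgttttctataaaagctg

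Per kilobase of exon, the mean normalized count in control PMφs ran from 2866 for Esd and 2435 for Sqstm1 through 1574 for Nfe2l2, 450 for Bach1, 184 for Keap1, 179 for Ephx1 and 82.9 for Cbr3 to 22.3 for Me1 and 19.5 for Nqo1, with Osgin1 between Cbr3 and Me1. Nqo1, Me1, Cbr3 and Osgin1 were thus low-abundance transcripts, whose libraries held 23 to 434 implied reads each. In oxLDL+LPS PMφs Sqstm1 led with 15179 per kilobase, ahead of Esd with 7351. Exons of Keap1 share 510 bases with an antisense gene, Gm16754, which reached at most 148, and exons of Sqstm1 share 580 bases with Mrnip on the other strand, which reached at most 12. Whether counting used the strand is not stated in the sources used here.

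**Figure D1:**
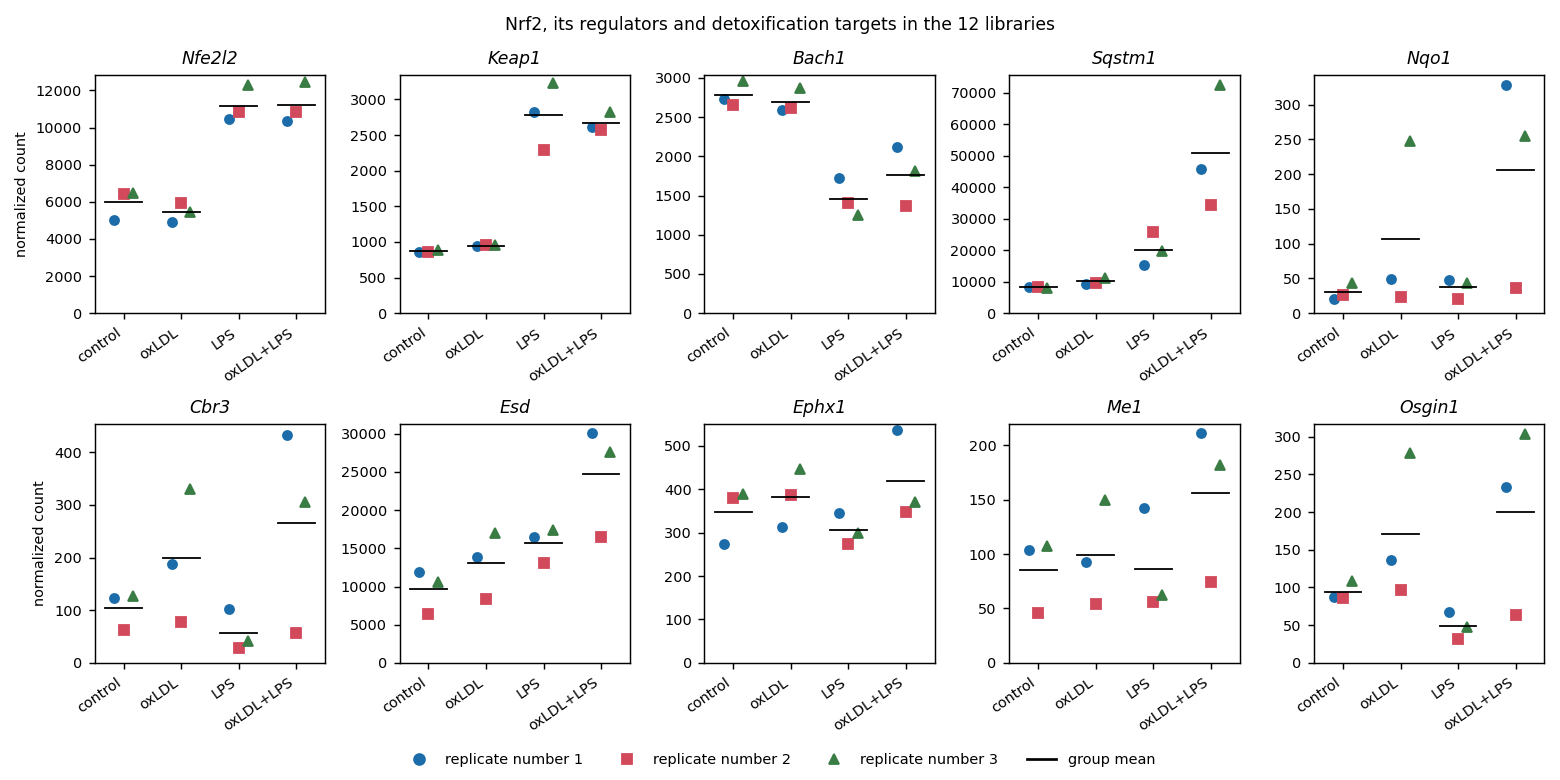
Normalized counts (vertical axes from 0, a scale of its own for each gene) of the 10 genes in the 4 groups, 1 point per library, with replicate numbers 1 (circles), 2 (squares) and 3 (triangles) and the group mean as a line. Nfe2l2 and Keap1 sat higher in the 6 libraries with LPS than in the 6 without, Bach1 sat lower, and Nqo1, Cbr3 and Osgin1 were above 200 only in oxLDL or oxLDL+LPS libraries.

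The first comparisons asked what LPS did to these genes in PMφs without oxLDL. LPS changed much of the transcriptome, with 61.7% of all genes tested called. Among the regulators Nfe2l2, Keap1 and Sqstm1 mRNA rose and Bach1 mRNA fell. Among the targets Esd rose, Osgin1 fell and the other 4 were not called. A call is a Benjamini-Hochberg adjusted p under 0.1 from limma over all genes tested.

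Nfe2l2 (ENSMUSG00000015839.6, GRCm38 chr2:75675513-75704641, minus strand) was at 5020, 6425 and 6475 in control libraries 1 to 3 and at 10443, 10831 and 12297 in LPS libraries. The 2 groups did not overlap. Its mean went from 5973 ± 826 to 11190 ± 978 (SD, n = 3 each), a log2 fold change of 0.91 (SE 0.13, limma adjusted p = 0.00070). Keap1 (ENSMUSG00000003308.15, chr9:21229730-21239361, minus strand) was at 865, 852 and 880 in control and at 2818, 2291 and 3230 in LPS PMφs. The lowest LPS library was thus above every control library, and the log2 fold change was 1.67 (SE 0.13, limma adjusted p = 2.7e-05). Transcripts of Nrf2 and of its inhibitor therefore rose together, Keap1 to 3.21 times and Nfe2l2 to 1.87 times the control mean.

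Bach1 (ENSMUSG00000025612.5, chr16:87698945-87733346, plus strand), the repressor, was at 2727, 2649 and 2958 in control and at 1726, 1400 and 1253 in LPS PMφs. It fell by 0.94 on the log2 scale (SE 0.13, limma adjusted p = 0.00053), with no overlap of the groups. Sqstm1 (ENSMUSG00000015837.15, chr11:50199366-50210827, minus strand) was at 8302, 8164 and 8053 in control and at 15348, 25674 and 19580 in LPS PMφs. Its log2 fold change was 1.27 (SE 0.18, limma adjusted p = 0.00064), and number 2 held the highest LPS value.

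Among the targets, Esd (ENSMUSG00000021996.16, chr14:74732297-74750765, plus strand), which encodes S-formylglutathione hydrolase, was at 11940, 6440 and 10561 in control and at 16530, 13058 and 17428 in LPS PMφs. The groups did not overlap and the log2 fold change was 0.74 (SE 0.24, limma adjusted p = 0.030). Osgin1 (ENSMUSG00000074063.10, chr8:119434124-119446256, plus strand), an oxidative stress induced growth inhibitor, was at 87, 86 and 108 in control and at 68, 31 and 48 in LPS PMφs. It fell by 0.98 on the log2 scale (SE 0.29, limma adjusted p = 0.024). Cbr3 (ENSMUSG00000022947.8, chr16:93683215-93690990, plus strand), a carbonyl reductase, was at 123, 62 and 127 in control and at 102, 29 and 41 in LPS PMφs. It was lower in each replicate number and was called with the replicate block alone (log2 fold change -0.98, SE 0.27, limma adjusted p = 0.016). Without the block the SE was 0.48 (limma adjusted p = 0.12).

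Nqo1, Ephx1 and Me1 were not called by either fit. Their log2 fold changes were 0.28 (95% interval -0.66 to 1.22), -0.17 (-0.56 to 0.22) and -0.02 (-1.05 to 1.02). These intervals are from the fit without a block and do not exclude changes of over 1 on the log2 scale for Nqo1 and Me1. With the replicate block the interval was -0.48 to 1.04 for Nqo1 and -0.63 to 0.60 for Me1.

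In all, 6 of the 10 genes were called, 4 higher and 2 lower, where 61.7% of the 13006 genes tested were called. With the replicate block 7 were called, against 68.7% of all genes, and without number 1 in the block 8 were, Ephx1 being added. The groups did not overlap for 4 higher and 2 lower genes, against 63.2% of all genes. The genes were thus called at about the rate of the table. In a single fit on all 12 libraries Osgin1 was no longer called (limma adjusted p = 0.15). Scaling every library to the same total moved the median of all genes by -0.48 on the log2 scale and the share of calls that were higher from 50.9% to 23.5%. Nfe2l2, Keap1 and Sqstm1 were still called higher and Bach1 lower under it, but Esd was no longer called (log2 fold change 0.25) and Nqo1 turned to -0.19.

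In PMφs with accumulated oxLDL the regulators also changed with LPS. Nfe2l2 was at 4904, 5941 and 5428 with oxLDL and at 10335, 10865 and 12481 with oxLDL+LPS (log2 fold change 1.05, SE 0.11, limma adjusted p = 0.00026). Keap1 was at 940, 950 and 958 with oxLDL and at 2609, 2566 and 2820 with oxLDL+LPS (1.49, SE 0.07, limma adjusted p = 6.3e-06). Neither pair of groups overlapped.

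Bach1 was at 2595, 2620 and 2871 with oxLDL and at 2113, 1366 and 1808 with oxLDL+LPS. It fell by 0.63 (SE 0.16, limma adjusted p = 0.013), and number 1 fell least, to 0.814 of its oxLDL value. Sqstm1 was at 9363, 9720 and 11273 with oxLDL and at 45886, 34380 and 72557 with oxLDL+LPS, a log2 fold change of 2.27 (SE 0.26, limma adjusted p = 0.00035) and the largest of the 10 genes in this comparison.

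Esd was the target called without a block, from 13896, 8331 and 17043 to 30074, 16474 and 27682 (log2 fold change 0.93, SE 0.32, limma adjusted p = 0.045). That call was lost without the oxLDL+LPS library of number 1 (0.77, limma adjusted p = 0.12), that of number 3 (0.83, limma adjusted p = 0.12) or the oxLDL library of number 2 (0.64, limma adjusted p = 0.13). In all, 5 of the 10 genes were called, against 54.5% of 12883 genes tested, and 7 with the replicate block, against 63.4%. The block added Nqo1 (1.13, SE 0.48 with it and 1.06 without) and Me1 (0.63, SE 0.20 with it and 0.49 without). Leaving number 1 out of the block returned the count to 5. For 3 higher genes and 1 lower gene the groups did not overlap, against 57.6% of all genes. With equal library totals the median of all genes moved by -0.40, the share of calls that were higher went from 51.7% to 23.7%, Esd was no longer called (0.54) and Cbr3, Ephx1 and Osgin1 turned from 0.21, 0.12 and 0.09 to -0.18, -0.27 and -0.29. The comparisons of LPS with control and of oxLDL+LPS with oxLDL share no library. They do share replicate numbers, whose libraries were alike with and without oxLDL, so 1 is not an independent repeat of the other.

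**Figure D2:**
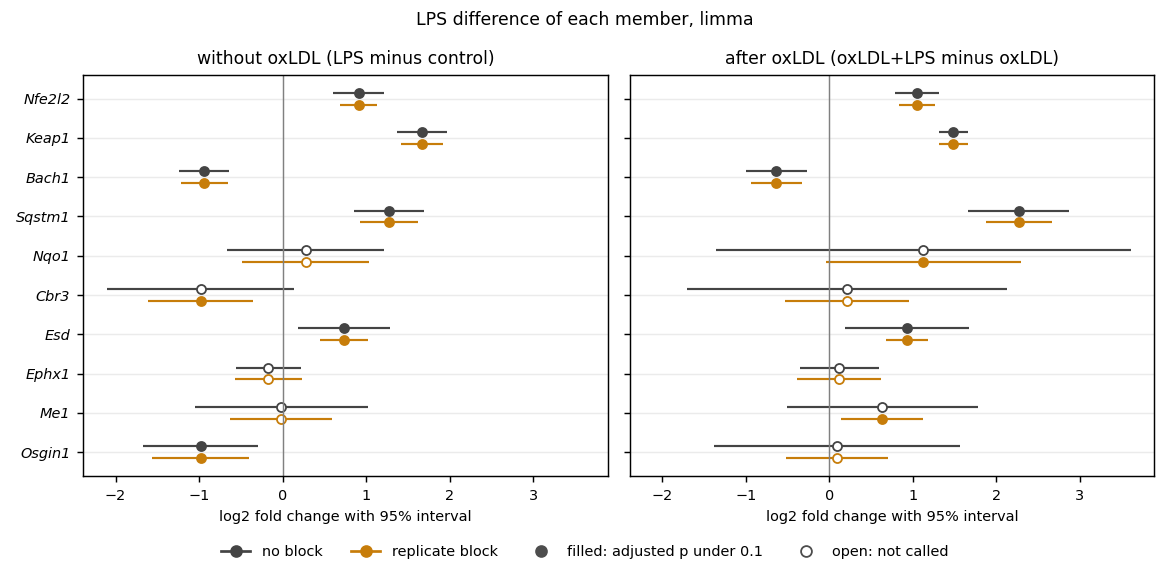
Log2 fold change with LPS (horizontal axes) and 95% interval of the 10 genes from limma, without oxLDL (left) and after oxLDL (right), with no block (grey) and with the replicate block (orange), filled where the adjusted p was under 0.1. The 4 regulators were filled in both panels and both fits. The intervals of Nqo1, Cbr3, Me1 and Osgin1 were wider than those of every regulator, which did not always hold for Esd and Ephx1.

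The second question was what oxLDL did to the genes in PMφs without LPS. The ratios of the oxLDL to the control mean were 0.908 for Nfe2l2, 1.10 for both Keap1 and Ephx1, 1.16 for Me1 and 1.24 for Sqstm1, with Bach1 between Nfe2l2 and Keap1, and ran from 1.36 for Esd to 3.52 for Nqo1 among the other 4 targets. Without a block no gene was called, of the 10 or of the 12734 tested (0%), and 379 genes had an unadjusted p under 0.05. With the replicate number as a block, Sqstm1, Cbr3, Esd and Osgin1 rose, which is 4 of 10 genes against 4.7% of all genes tested. This count rests on the block.

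Sqstm1 was above its control values in all 3 oxLDL libraries, with no overlap of the groups and ratios of 1.13, 1.19 and 1.40 in numbers 1 to 3. The log2 fold change was 0.30 (SE 0.06 with the block, limma adjusted p = 0.025, and 0.09 without it). Keap1 also lay above the controls in all 3 libraries, by ratios of 1.09, 1.12 and 1.09, but was not called with the block (log2 fold change 0.13, SE 0.05, limma adjusted p = 0.20). These were the 2 genes whose groups did not overlap, where 7.69% of all genes had groups that did not.

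Nfe2l2 had a log2 difference of -0.13 (95% interval with the block -0.25 to -0.02, limma adjusted p = 0.22) and was lower in 3 of 3 numbers. Bach1 had -0.04 (-0.14 to 0.05), also lower in 3 of 3. Neither passed the threshold.

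The targets differed among pools. Nqo1 (ENSMUSG00000003849.8, chr8:107388225-107403206, minus strand), a quinone reductase and a standard readout of Nrf2, was at 21, 26 and 44 in control and at 49, 23 and 248 in oxLDL libraries. Number 3 rose to 5.64 times its control, number 1 to 2.33 times, and number 2 was at 0.885 of its control. The log2 fold change of 1.16 (SE 0.36 with the block) was not called (limma adjusted p = 0.14).

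Cbr3 was at 188, 77 and 331 with oxLDL and was above its own control in all 3 numbers, by ratios of 1.53, 1.24 and 2.61 (log2 fold change 0.76, SE 0.17 with the block, limma adjusted p = 0.042). Osgin1 was at 137, 96 and 279 with oxLDL, by ratios of 1.57, 1.12 and 2.58 (0.72, SE 0.18, limma adjusted p = 0.072). Esd had ratios of 1.16, 1.29 and 1.61 (0.43, SE 0.08, limma adjusted p = 0.016). In each of these, number 3 had the largest ratio and the groups overlapped. Number 2 was the lowest oxLDL library of each gene and also its lowest control library. The SEs without the block were 0.52 for Cbr3, 0.36 for Osgin1 and 0.31 for Esd.

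Ephx1 (ENSMUSG00000038776.13, chr1:180976210-181020904, minus strand), the microsomal epoxide hydrolase, was at 275, 381 and 390 in control and at 314, 386 and 446 in oxLDL PMφs. Its log2 fold change was 0.13 (95% interval with the block -0.02 to 0.29). Me1 (ENSMUSG00000032418.15, chr9:86581371-86695953, minus strand), the cytosolic malic enzyme that supplies NADPH, was at 104, 46 and 107 in control and at 93, 54 and 150 in oxLDL PMφs. It went down in number 1 and up in numbers 2 and 3 (0.18, -0.14 to 0.51).

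The calls depended on which pools entered. Leaving number 1 out of the block kept Sqstm1 and Esd, leaving out number 2 gave Nqo1, Cbr3 and Osgin1, and leaving out number 3 gave Sqstm1, Cbr3 and Esd. Such reduced fits keep little spread within a gene, and their calls are given only to show this dependence. Number 3, which had the largest oxLDL ratios for the targets, also had the highest sums of 5 neutrophil markers without LPS, 1311 in control and 1710 in oxLDL PMφs against 200 to 249 in numbers 1 and 2, with Ly6g at 0 in every library. The part of these cells in the result was not tested.

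**Figure D3:**
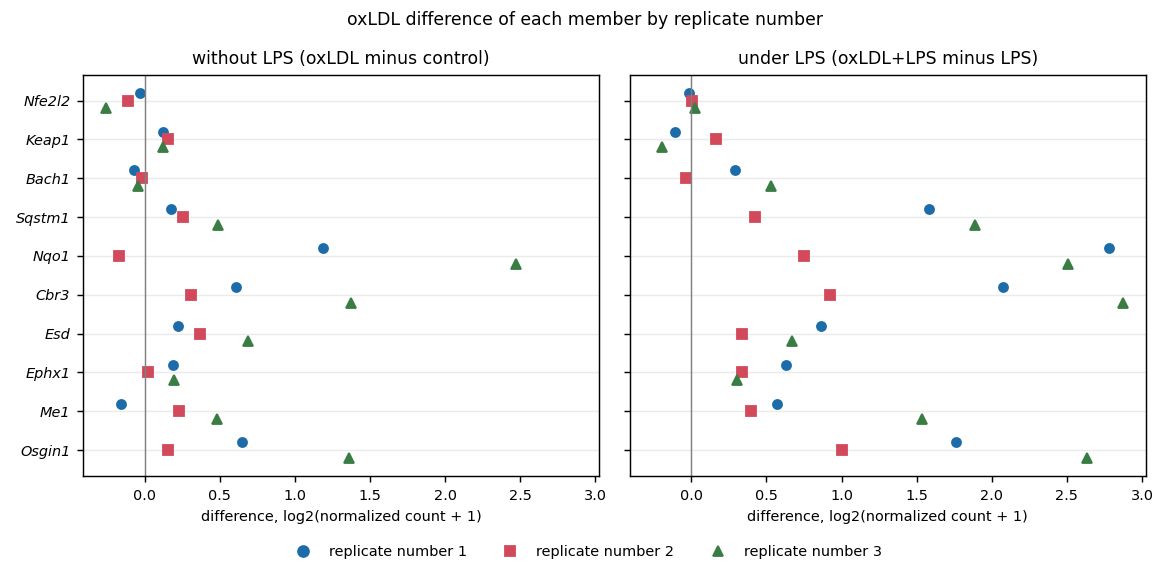
Difference made by oxLDL in log2(normalized count + 1) (horizontal axes) for each of the 10 genes, without LPS (left) and under LPS (right), with 1 point per replicate number (1 circles, 2 squares, 3 triangles). Under LPS the points of Sqstm1 and the 6 targets all lay above 0, with number 2 the lowest for 6 of these 7 genes, and the points of Nfe2l2 lay between -0.02 and 0.02.

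The third question was how accumulated oxLDL changed the genes under LPS. Sqstm1 and all 6 targets were higher with oxLDL+LPS than with LPS in each of the 3 replicate numbers, Nqo1 to 5.53, Cbr3 to 4.62, Osgin1 to 4.07 and Sqstm1 to 2.52 times the LPS mean. Nfe2l2 and Keap1 did not show this, with differences near 0. The share of all genes that were higher in each number was not computed. Without a block no gene was called, of the 10 or of 12769 tested (0%), and 890 genes had an unadjusted p under 0.05. With the replicate block, Sqstm1 and the 6 targets rose, which is 7 of 10 genes against 13.2% of all genes tested.

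Sqstm1 values of 45886, 34380 and 72557 with oxLDL+LPS stood against 15348, 25674 and 19580 with LPS. The groups did not overlap, although the ratio was 2.99 in number 1, 1.34 in number 2 and 3.71 in number 3. The log2 fold change was 1.30 (SE 0.23 with the block, limma adjusted p = 0.015, and SE 0.31 without it, limma adjusted p = 0.70).

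Nqo1 was at 47, 21 and 44 with LPS and at 328, 36 and 255 with oxLDL+LPS, a log2 fold change of 2.01 (SE 0.33 with the block, limma adjusted p = 0.012). Numbers 1 and 3 rose to 6.98 and 5.80 times their LPS values and number 2 to 1.71 times, so that its oxLDL+LPS library lay within the range of the LPS libraries. Cbr3 was at 433, 56 and 306 with oxLDL+LPS, 4.25, 1.93 and 7.46 times its LPS values (1.96, SE 0.30 with the block, limma adjusted p = 0.0093). Osgin1 was at 233, 63 and 303 with oxLDL+LPS, 3.43, 2.03 and 6.31 times its LPS values (1.80, SE 0.26 with the block, limma adjusted p = 0.0084). Number 2 was the lowest library of each of these 3 genes in both groups. Their SEs without the block were 0.81 for Nqo1, 0.80 for Cbr3 and 0.59 for Osgin1.

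Esd rose from 16530, 13058 and 17428 to 30074, 16474 and 27682 (0.62, SE 0.12 with the block, limma adjusted p = 0.019). Ephx1 was at 346, 275 and 300 with LPS and at 537, 348 and 370 with oxLDL+LPS, and its groups did not overlap (0.42, SE 0.10 with the block, limma adjusted p = 0.039). Me1 was at 142, 56 and 62 with LPS and at 211, 74 and 182 with oxLDL+LPS (0.83, SE 0.21 with the block, limma adjusted p = 0.049). For Esd, Ephx1 and Me1 the SEs without the block were 0.25, 0.19 and 0.49. Sqstm1 and Ephx1 were the 2 genes of the 10 without overlap, against 12.6% of all genes tested.

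For the other regulators the differences under LPS were 0.00 for Nfe2l2 (95% interval with the block -0.19 to 0.19), -0.05 for Keap1 (-0.24 to 0.14) and 0.26 for Bach1 (0.03 to 0.49, limma adjusted p = 0.16). Without the block the intervals were wider, -0.29 to 0.30 for Nfe2l2, -0.37 to 0.28 for Keap1 and -0.18 to 0.71 for Bach1.

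These calls changed with the pools that entered the block. Leaving number 1 or number 3 out of the block left 0 of the 10 genes called (70 and 0 of all genes), and leaving out number 2 gave 8, with Bach1 added. With a number left out, little spread within a gene remains, so these counts show sensitivity and do not support calls. Without a block, leaving out the oxLDL+LPS library of number 2 gave calls for Nqo1 and Osgin1. Number 2 was the pool with a Y-linked sum of at most 2, and whether sex or another property of that pool bears on its smaller differences was not tested. In number 1 the sum of the mesothelial and fibroblast markers was 18677 with oxLDL+LPS against 32202 with LPS, in number 2 it was 16515 against 15067 and in number 3 it was 5455 against 6338, so that it fell in the 2 pools with the larger oxLDL differences. The sum of the neutrophil markers rose in the same 2 pools, from 440 to 682 in number 1 and from 749 to 1062 in number 3, and was 252 in both libraries of number 2. The part of either in the result was not tested.

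The size of the oxLDL difference with LPS was set against that without LPS in an interaction fit on all 12 libraries. The interaction was positive in 9 of the 10 genes, the exception being Keap1 with -0.18, and no gene was called, of the 10 or of 13465 tested (0% with and without the block, with 967 and 416 genes at an unadjusted p under 0.05). Sqstm1 had the smallest p of the 10, with a difference of 0.99 between the oxLDL effects (95% interval 0.24 to 1.74, limma adjusted p = 1.0, and 0.65 with the block). By number it was 1.41, 0.17 and 1.40. The replicate block here treats number 1 as a single pool across LPS states, unlike its sex-linked transcripts. A block within each LPS state, given in the last section, called other genes but none of the 10. Osgin1 had 1.08 (-0.60 to 2.76) and Cbr3 1.19 (-1.14 to 3.53). Larger oxLDL effects under LPS than without it are therefore not established for any of the 10 genes.

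Beyond the 10 genes, 34 of 35 further Nrf2 targets were in the table and 32 were tested. They were higher with oxLDL in 31 of 32 cases without LPS (median log2 fold change 0.49, against -0.01 over all genes) and in 30 of 32 under LPS (median 0.89, against -0.01). Without a block 0 were called in either comparison, where 0% of all genes were. With the block, 20 rose and 1 fell without LPS, where 4.7% of all genes were called, and 22 rose and 0 fell under LPS, where 13.2% were. The gene that fell was Lpcat1, a lysophosphatidylcholine acyltransferase (-0.28, limma adjusted p = 0.069), and it was named after its value was seen.

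By smallest p, the genes named were Blvrb, which reduces biliverdin, Taldo1, of the pentose phosphate pathway, Cat, the catalase, Prdx1, a peroxiredoxin, and Slc48a1, a heme transporter. Blvrb went from a mean of 1486 in control to 2513 in oxLDL PMφs (log2 fold change 0.72, SE 0.08 with the block, limma adjusted p = 0.0012). Under LPS it went from 2388 to 4823 (0.93, SE 0.10, limma adjusted p = 0.0035). Prdx1 had a mean of 17852 in control, 47290 in oxLDL, 49359 in LPS and 160822 in oxLDL+LPS PMφs, with 222173 in its highest library and 48141 in the oxLDL+LPS library of number 2.

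Cat had a log2 fold change of 0.82 with oxLDL alone and of 1.49 under LPS, and Taldo1 of 0.58 and 1.06, each called in both comparisons with the block. Slc48a1 had 1.31 under LPS, also called with the block. The median of the 32 targets by number was 0.32, 0.32 and 0.86 without LPS and 1.03, 0.36 and 1.13 under LPS, so that number 2 was lowest under LPS here too. With LPS alone 8 were higher and 8 lower (median -0.06), against 61.7% of all genes called, and 10 and 12 with the block, against 68.7%. The cystine transporter Slc7a11 rose by 5.05 on the log2 scale (mean 295 to 10092) and the exporter Abcc1 by 1.97, while Cbr1 fell by 0.93 and Ugdh by 0.64.

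**Figure D4:**
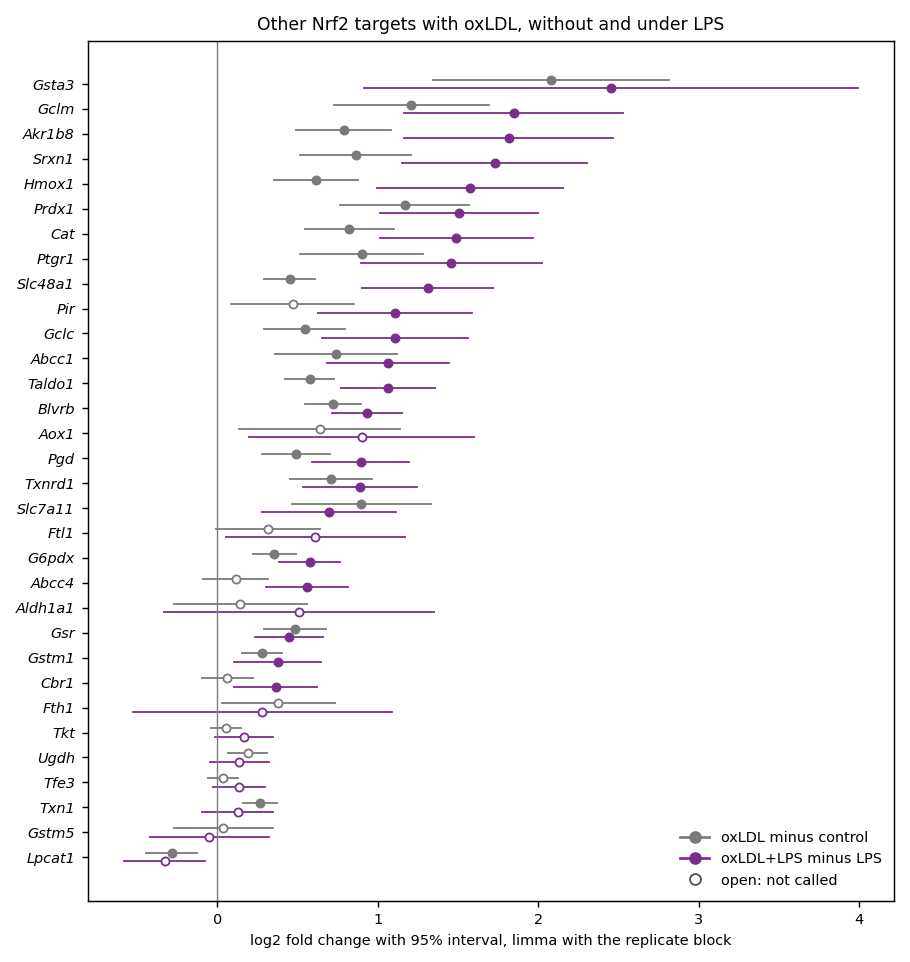
Log2 fold change with oxLDL (horizontal axis) and 95% interval of the 32 tested further Nrf2 targets (vertical axis, in order of the value under LPS) from limma with the replicate block, without LPS (grey) and under LPS (purple), filled where the adjusted p was under 0.1. The means lay above 0 for 31 genes without LPS and for 30 under LPS.

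Of 16 other partners and regulators of Nrf2, LPS alone raised 10 and lowered 2, where 31.4% of all genes were called higher and 30.3% lower. The ubiquitin ligase Trim21 rose by 3.84, the small Maf proteins Maff and Mafk by 3.39 and 1.77, and Cul3, the scaffold of the Keap1 ligase, by 0.60 on the log2 scale, each called in limma. Bach2, a relative of Bach1, fell by 3.06. With oxLDL 0 of the 16 were called without a block, where 0% of all genes were. With it, 0 were higher and 1 lower without LPS, where 4.7% of all genes were called, and 1 was higher and 3 lower under LPS, where 13.2% were. The coactivator gene Crebbp was lower in both (-0.22, limma adjusted p = 0.081, and -0.43, limma adjusted p = 0.017, with the block). Under LPS Maff was lower (-0.54) and Mafg higher (0.39).

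Among 18 tested enzymes of carbonyl, quinone and epoxide metabolism, LPS alone lowered 11 and raised 1 (median -0.57), where 61.7% of all genes were called. The rhodanese Tst went from a mean of 543 to 70.3. With oxLDL and the block, 4 rose and 0 fell without LPS, among them the aldehyde reductase Akr1a1 (0.28), and 5 rose and 0 fell under LPS (Akr1a1 0.52), where 4.7% and 13.2% of all genes were called. Without a block 0 of them were called with oxLDL, where 0% of all genes were.

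Of 8 tested genes listed as NADP+-dependent dehydrogenases, LPS alone lowered 5 and raised 1, where 61.7% of all genes were called. Me2 and Nnt, both among the 5, are not strictly of this class. Idh1 went from a mean of 5165 to 671. With oxLDL and the block, 2 rose and 1 fell without LPS, where 4.7% of all genes were called, and 4 rose and 1 fell under LPS, where 13.2% were. No gene of this list was called with oxLDL without a block, where 0% of all genes were. G6pdx and Pgd, the dehydrogenases of the pentose phosphate pathway, rose by 0.36 and 0.49 without LPS and by 0.58 and 0.90 under LPS, and Aldh1l1 fell by 0.80 and 0.78. G6pdx, Pgd and Cbr1 are each in 2 of the lists.

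As a description over 12 libraries that share pools and treatments, log2 values of Nfe2l2 had a Pearson correlation of 0.96 with Keap1 and -0.88 with Bach1 but of 0.24 with Nqo1. Among the targets, Cbr3 had 0.95 with Osgin1 and 0.87 with Me1, and Nqo1 had 0.84 with both Cbr3 and Osgin1. Sqstm1 had 0.83 with Nfe2l2 and 0.55 with Nqo1. The target Esd had 0.81 with Sqstm1, 0.71 with Keap1 and 0.59 with Nfe2l2, against 0.78 with Nqo1, 0.55 with Cbr3, 0.44 with Osgin1 and 0.29 with Ephx1.

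Of 13465 genes, those most like Nfe2l2 were Ptprc (r = 0.99), Aoah, Itgal, Clec2d and A530032D15Rik, and those most like Nqo1 were Srxn1 (r = 0.95), Pgd, Pla2g7, Gclm and Afp. Ptprc, the leukocyte common antigen, ranged from 6125 to 7688 without LPS and from 13838 to 18242 with it. Srxn1, which encodes sulfiredoxin, was at 4085, 1957 and 4196 in control, 5282, 3097 and 12329 in oxLDL, 3999, 2612 and 3888 in LPS and 17753, 4175 and 19950 in oxLDL+LPS PMφs. Its number 2 library was the lowest of each group.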

How the data were processed

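RNA-seq values of 12 PMφ cultures were used. Per the study's methods and the submitters' processing notes, reads were trimmed with Trimmomatic 0.32, aligned to mm10 (GRCm38) with STAR 2.5.1b and counted per GENCODE gene with featureCounts. The deposited values are treated as a score, because the authors divided the counts of each library by 1 factor (0.708 to 1.31, read here from the spacing of low values) and rounded them. Count tests were therefore not run, although the design allowed for them. Deposited totals were 17125855 to 26343382 per library. Date-like entries stood in place of 25 symbols (at most 0.165% of a library) and were left out. No column was without a sample (0).

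Groups were compared with limma 3.58.1 in R 4.3.3 (lmFit, eBayes with a trend) on log2(value + 1), keeping genes that reached 10 in 3 or more libraries of a comparison. Each comparison used its own 6 libraries, and the interaction used 12. Benjamini-Hochberg adjusted p under 0.1 was the threshold. P-values without a block measure the spread between these pools. Those with the block measure the spread left after differences between replicate numbers are removed. When a number is left out of a blocked comparison of groups, little of that spread remains. The p-values then rest mostly on variance shared across genes. Unpaired, 3 against 3 values allow no exact two-sided permutation p below 0.1, and 3 pairs allow fewer arrangements, so that their limit is higher. Fold changes on this scale understate the change of low genes. The fits were tested on simulated data first.

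The labels number replicates 1 to 3 in each group. Over 11170 genes, deviations from group means correlated at 0.71, 0.69 and 0.73 between control and oxLDL libraries of the same number and at 0.73, 0.66 and 0.69 between LPS and oxLDL+LPS libraries. Across LPS states same-numbered libraries had 0.31 to 0.66. The study's methods describe pools divided among groups. The numbers therefore pair libraries, although number 1 differed in sex-linked transcripts between LPS states, and values with a replicate block accompany the unblocked ones wherever a call changes.

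The genes, gene lists and tests were chosen with earlier results of these data known. All 10 genes are named, and of each further list genes called in a comparison, without or with the block, at most 4 per comparison by smallest p. For Nfe2l2 and Nqo1 the 5 genes with the highest correlation are named. Lists covered other partners and regulators of Nrf2, other Nrf2 targets, enzymes of carbonyl, quinone and epoxide metabolism, NADP+-dependent dehydrogenases, checks of both treatments and markers of 8 cell types and both sexes. H6pdx and Trim16l had no row under those symbols. Gene positions and exon lengths are from GENCODE vM21 (GRCm38) and promoter windows from RefSeq (GRCm38.p6). A planned search of protein motifs was not run. Alternatives were a pseudocount of 10, other filters, equal library totals, all 12 libraries in 1 fit, the replicate block, each library left out and, chosen after seeing the data, a block within each LPS state.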

Additional observations from a re-analysis of the deposited data

How the results depend on the processing

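With no block, where 0% of all genes were called with oxLDL, the calls gave 0 of the 10 genes in either LPS state. Pairing by the replicate block raised this to 4 without LPS and 7 under LPS, and changed the LPS counts from 6 to 7 and, after oxLDL, from 5 to 7. A pseudocount of 10, other filters and 1 fit on all 12 libraries moved no count of called genes by over 1.5 times. Leaving out 1 number from the block gave 2 to 3 genes with oxLDL without LPS, 0 to 8 under LPS and 5 to 8 with LPS after oxLDL, and leaving out 1 library without a block gave 0, 0 to 2 and 4 to 7. The blocked fits without a number keep too little spread within a gene for their counts to support calls. Over the recomputed values of single genes, 723 kept direction and side of the threshold, 47 gained a call, 6 lost one and 34 changed sign. With the same total in every library, Nqo1 with LPS turned to -0.19, Keap1 with oxLDL under LPS to 0.043, and Cbr3, Ephx1 and Osgin1 with LPS after oxLDL to -0.18, -0.27 and -0.29, relative to medians of all genes of -0.48, 0.08 and -0.40. Without single libraries, the log2 differences whose sign changed spanned, for oxLDL without LPS, -0.090 to 0.0026 in Bach1, -0.028 to 0.27 in Ephx1 and -0.21 to 0.56 in Me1. For LPS without oxLDL Me1 spanned -0.44 to 0.23, and for oxLDL under LPS Nfe2l2 spanned -0.075 to 0.073 and Keap1 -0.18 to 0.068. For LPS after oxLDL Cbr3 spanned -0.36 to 1.10, Ephx1 -0.075 to 0.24 and Osgin1 -0.34 to 0.78, and for the interaction Esd spanned -0.10 to 0.46. Without number 1 in the block, Nqo1 with LPS was -0.15, the interaction of Esd -0.030, and Cbr3, Ephx1 and Osgin1 with LPS after oxLDL were -0.28, -0.21 and -0.24. Without number 3 in the block, Me1 with LPS was 0.36, and Nfe2l2 and Keap1 with oxLDL under LPS were -0.0052 and 0.026. None of these had been called without a block in the comparison named. A block within each LPS state, chosen after seeing the data, called 140 genes for the interaction and 0 of the 10 (Sqstm1 limma adjusted p = 0.18). Nqo1, Cbr3, Me1 and Osgin1 rested on as few as 23, 29, 44 and 34 reads in a library, which limits their precision. The cause of the changes was not tested.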
